A study of Saccharomyces cerevisiae with 6 samples.

Results

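The 35 genes described here belong to the meiosis and sporulation programme of budding yeast, read in haploid BY4741 cells. They were chosen by name and role, and are 35 of the 6572 features listed in the BY4741 count files. They fall into 3 classes, with 6 entry regulators, 17 genes of recombination and synapsis, and 12 genes of mid to late spore formation. SPO13, a regulator of the first meiotic division, was kept with the recombination genes by its place in the list.

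The series holds 6 RNA sequencing libraries, 3 of S. cerevisiae BY4741 and 3 of the probiotic yeast S. boulardii Biocodex. All cells had spent 6 h in a medium that the labels call ILM and were collected in exponential growth. BY4741 is a laboratory strain of the S288C background, known as a haploid of mating type a with deletions, whole or partial, in genes of histidine, leucine, methionine and uracil synthesis, so every BY4741 library shares that genotype. The Biocodex files name no genes that BY4741 files name (0 of 5482 identifiers are shared), so no gene was compared between the strains and the values below come from BY4741 alone. Nothing in the labels tells if the 3 libraries came from separate cultures, and no diploid or starved sample of BY4741 was analysed here. The BY4741 libraries held 18707708, 5181546 and 4581414 counted reads in libraries 1, 2 and 3. Levels are given as CPM, the reads of a gene scaled to a common library size, and, where genes are compared with each other, as RPKM, which is CPM per kb of coding length.

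In budding yeast, meiosis is normally entered by diploid cells that carry both mating types and lack nitrogen and a fermentable sugar. A haploid cell makes Rme1, a repressor that keeps IME1, the gene of the master activator, from being transcribed. When Ime1 is made, it joins Ume6 at early gene promoters and turns them on, and Ndt80 later switches on the middle genes that drive the divisions and spore formation. In dividing cells Ume6 holds early genes silent through the element URS1, and Sum1 holds middle genes silent through the middle sporulation element (MSE), to which Ndt80 also binds.

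The promoters of the 3 classes held the letters of these elements in unequal numbers, and the sites are shown because the regulators named above are known to bind such letters. The letters searched were GGCGGC for the URS1 core and CACAAA for the MSE core, on both strands, from 250 bases before to 50 bases after the start codon's first base, in the RefSeq sequence and annotation of S288C, build R64. The files' own build is not given, so these coordinates locate the sequences in R64 and were not applied to the counts. The URS1 core occurred in 11 of 17 promoters of recombination and synapsis genes, in 2 of 6 of the entry regulators, in 1 of 12 of the spore formation genes and in 5.22% of the 5897 promoters of all matched genes. The MSE core occurred in 8 of 12 promoters of spore formation genes, in 2 of 17 of recombination genes, in 2 of 6 of entry regulators and in 19.03% of all promoters.

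The URS1 cores of the recombination genes are printed 5′ to 3′ on the strand that reads GGCGGC, with the core in capitals and 8 bases on either side. MEK1 holds a pair of cores whose printed stretches overlap.
SPO13 (chrVIII:131944-131965, minus strand): tttttgtcGGCGGCtatttctc
HOP1 (chrIX:226423-226444, plus strand): ttaacctgGGCGGCtaaattgt
ZIP1 (chrIV:1032408-1032429, plus strand): ataccctcGGCGGCtaaatttt
REC8 (chrXVI:571549-571570, minus strand): ttgacttcGGCGGCaaaccaat
DMC1 (chrV:548275-548296, minus strand): tatccttgGGCGGCtattttcc
MEK1 (chrXV:996646-996667, minus strand): agaatgatGGCGGCtaaatttc
MEK1 (chrXV:996632-996653, minus strand): taaatttcGGCGGCtatttcat
REC104 (chrVIII:412808-412829, plus strand): caatatttGGCGGCtattttcc
MEI4 (chrV:239857-239878, minus strand): tattgctgGGCGGCtaaatgtt
REC114 (chrXIII:536107-536128, plus strand): acaaggtgGGCGGCtaacttat
MER1 (chrXIV:250813-250834, minus strand): acactgtcGGCGGCtaaaatgc
HED1 (chrIV:477721-477742, minus strand): ttaacctgGGCGGCtatcttaa
Of these 12 sites, 11 were followed by T, and the longer form AGCCGCC, which is GGCGGCT on the other strand, was held by 10 of the 17 promoters of this class and by 2.20% of all promoters. The sites began between 20 bases (ZIP1) and 184 bases (REC8) before the start codon. No core was found in the windows of SPO11, RED1, REC102, ZIP2, MSH4 and MSH5, which says only that these letters are not in them.

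The MSE cores of the spore formation genes are printed in the same way on the strand that reads CACAAA.
SPO1 (chrXIV:609560-609581, plus strand): ctgattttCACAAAgaaaggta
SPS1 (chrIV:1487031-1487052, minus strand): gaaaatagCACAAAatggaaag
SPS4 (chrXV:903051-903072, minus strand): acgcgcgcCACAAAaacgtatc
SMK1 (chrXVI:666193-666214, minus strand): tcaagtgtCACAAAttagtggc
SPO20 (chrXIII:307453-307474, minus strand): tggctattCACAAAcggaaaaa
SPO21 (chrXV:145162-145183, plus strand): tttgacctCACAAActtttttt
SPO21 (chrXV:145210-145231, plus strand): tttaatgtCACAAAaagaaaaa
SPR28 (chrIV:905258-905279, plus strand): aaggcaacCACAAAttgtctta
SPR28 (chrIV:905136-905157, plus strand): gggaatgaCACAAAatgtagac
SSP1 (chrVIII:472641-472662, plus strand): acaggcgaCACAAAatcatgaa
They began between 6 bases (SPS1) and 219 bases (SPR28) before the start codon, and SMK1, the MAP kinase of spore wall assembly, was the member with both cores. The longer forms CACAAAA or CACAAAT were held by 6 of these 12 promoters and by 12.4% of all promoters. A match is a run of letters, and no binding was measured here.

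**Figure D1:**
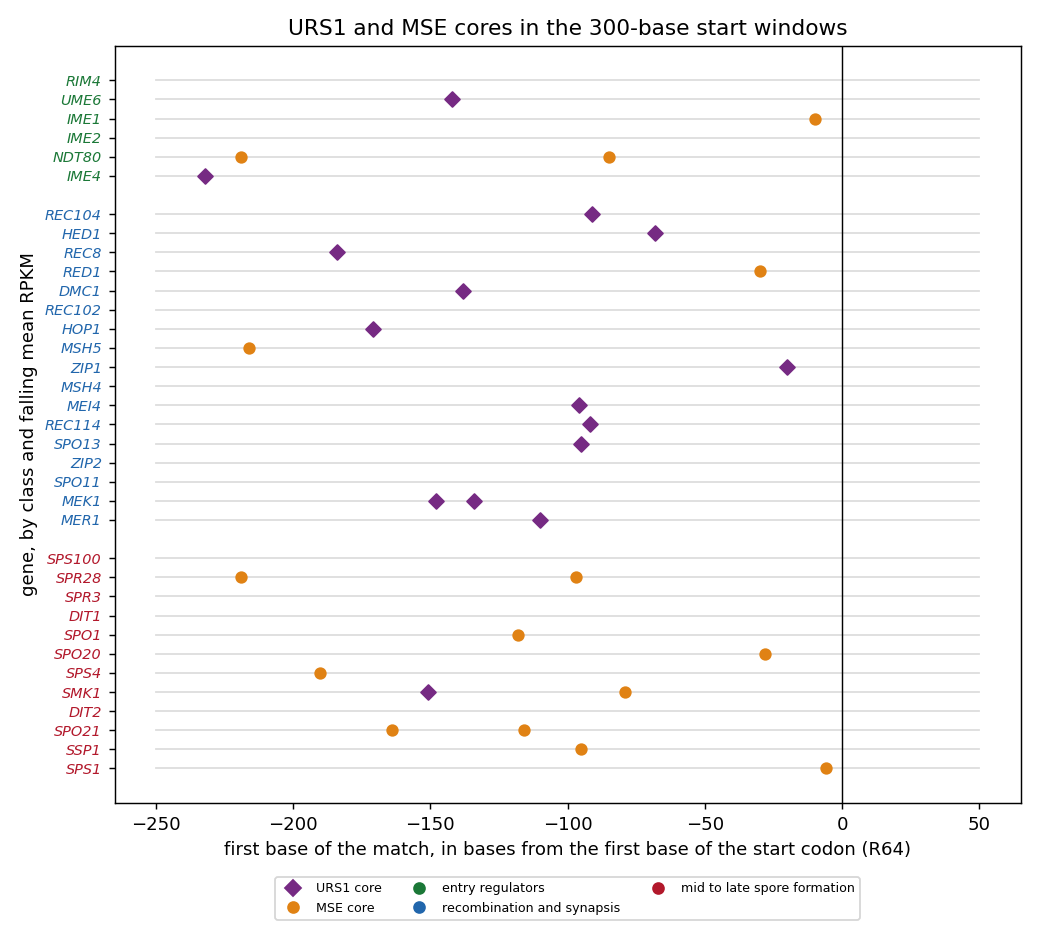
Position of URS1 cores (diamonds) and MSE cores (circles) in the start windows of the 35 genes, in bases from the start codon (x axis), 1 gene a line, grouped by class and ordered by falling mean RPKM. URS1 cores lie on 11 of the 17 recombination and synapsis genes and MSE cores on 8 of the 12 spore formation genes.

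Longer stretches of 130 bases are shown for the highest and the lowest gene of each class that holds a core, read along the coding strand of the gene. MER1 shares the lowest place of its class with MEK1, which also holds cores and had 0 reads in each library. Capitals mark the core or its reverse complement, so that high and low members can be compared by eye.
UME6 (chrIV:867600-867729, minus strand): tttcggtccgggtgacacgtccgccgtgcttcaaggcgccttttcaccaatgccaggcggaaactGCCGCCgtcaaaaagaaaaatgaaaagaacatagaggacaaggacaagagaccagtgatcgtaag
IME4 (chrVII:141996-142125, plus strand): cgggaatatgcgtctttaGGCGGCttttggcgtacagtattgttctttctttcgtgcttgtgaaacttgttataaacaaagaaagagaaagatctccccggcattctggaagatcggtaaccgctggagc
REC104 (chrVIII:412751-412880, plus strand): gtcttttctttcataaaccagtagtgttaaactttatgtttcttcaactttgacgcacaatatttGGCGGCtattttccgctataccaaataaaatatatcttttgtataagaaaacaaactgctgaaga
MER1 (chrXIV:250756-250885, plus strand): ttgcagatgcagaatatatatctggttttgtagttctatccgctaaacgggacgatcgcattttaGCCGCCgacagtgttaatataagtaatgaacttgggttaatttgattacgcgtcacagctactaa
SPR28 (chrIV:905144-905273, minus strand): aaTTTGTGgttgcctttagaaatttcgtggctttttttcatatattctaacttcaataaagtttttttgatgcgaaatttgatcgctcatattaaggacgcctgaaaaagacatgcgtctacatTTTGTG
SPS1 (chrIV:1486989-1487118, minus strand): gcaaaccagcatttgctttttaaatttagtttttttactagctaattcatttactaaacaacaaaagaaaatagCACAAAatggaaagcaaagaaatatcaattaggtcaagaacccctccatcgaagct
Members with and without a core did not separate cleanly by level. The 14 members with a URS1 core had a median of 2.81 RPKM and the 21 without one a median of 5.19 RPKM, while in all promoters the medians were 39.1 and 46.1 RPKM. That pooled gap mixes the classes. With and without a URS1 core the medians were 3.15 and 3.27 RPKM among recombination genes and 13.9 and 11.9 RPKM among entry regulators. With and without an MSE core they were 2.66 and 10.1 RPKM among spore formation genes, 8.10 and 2.13 RPKM among recombination genes and 43.6 and 46.3 RPKM over all promoters. UME6 and REC104 stood among the highest of their classes with a URS1 core, and MEK1 and MER1 had no reads with one. These are descriptions over genes, with no test.

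As a group the meiosis and sporulation genes were low. The median over the 35 genes was 4.17 ± 1.27 RPKM (SD, n = 3 libraries), against 45.2 ± 1.504 RPKM over the 5898 genes with a coding length. Of the 35 genes, 33 lay below the median of all matched genes in all 3 libraries, as did 2505 of the 5898 matched genes. The exceptions were SPS100, a spore wall gene that lay above it in each library, and RIM4, an RNA-binding repressor of meiotic messages, which lay on either side. By mean CPM, 21 of the 35 members (60.0%) were under 10 CPM, as were 13.4% of all matched genes. Together the 35 genes took 0.101% ± 0.0287 (SD, n = 3) of the reads, and their summed CPM was 1206, 685 and 1153 in libraries 1, 2 and 3. SPS100 alone held 769, 371 and 699.6 CPM of these sums. In bulk RNA, fewer cells that express a gene and less RNA per cell cannot be told apart.

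**Figure D2:**
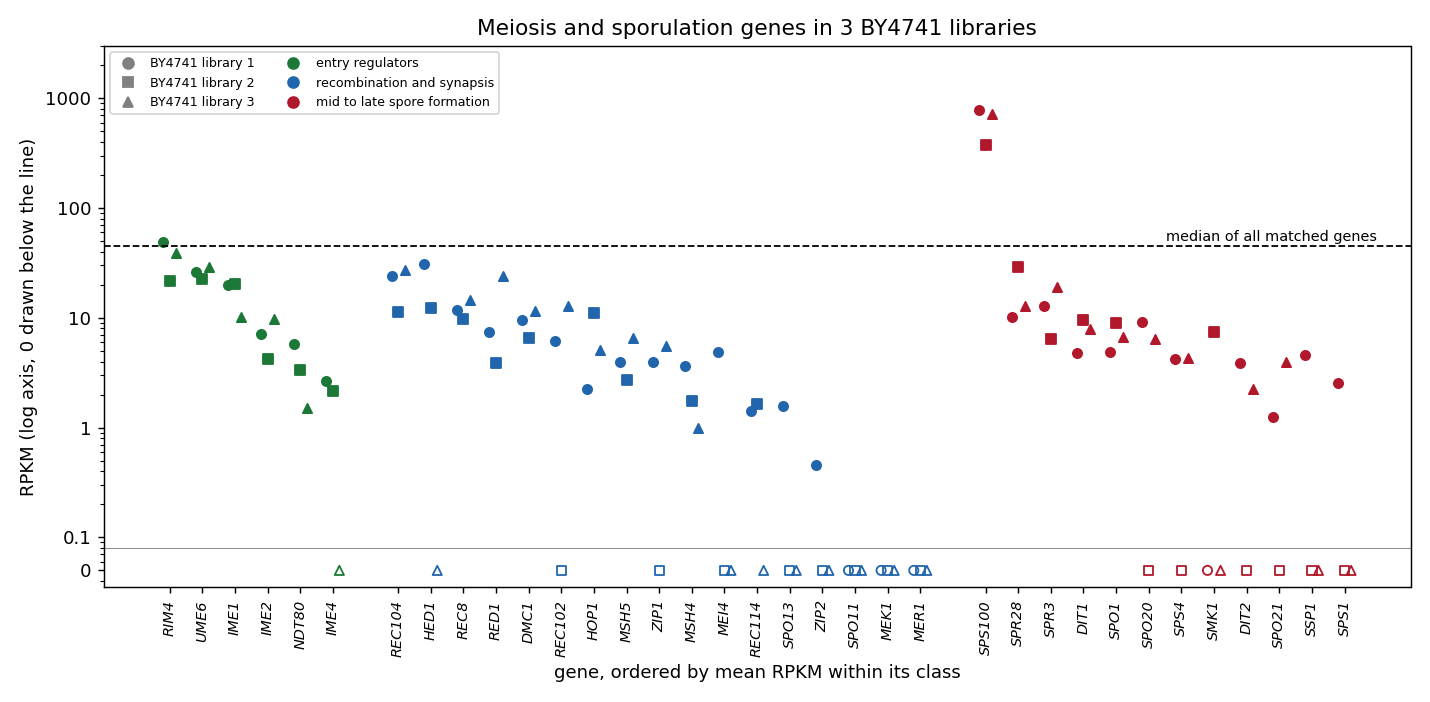
RPKM of each of the 35 genes (log axis) in BY4741 libraries 1 (circles), 2 (squares) and 3 (triangles), by class, with open symbols under the line for 0 reads and a dashed line at the median of all matched genes, 45.2 RPKM. The entry regulators have 1 open symbol among them, recombination and spore formation genes have many, and SPS100 is the gene far above the line.

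By class median the 3 classes ranked the same way in each library, with the entry regulators highest. The order of the lower pair rests on few genes. Their median was 13.4, 12.2 and 10.04 RPKM in libraries 1, 2 and 3, or 11.9 ± 1.71 (SD, n = 3). The spore formation genes had medians of 4.65, 3.20 and 5.35 RPKM, or 4.40 ± 1.095 (SD, n = 3). In library 2, 6 of these 12 genes had 0 reads, so the median lay midway between 0 and the 6.40 RPKM of SPR3. The recombination genes had medians of 3.97, 1.65 and 0.993 RPKM, or 2.20 ± 1.56 (SD, n = 3). In libraries 2 and 3, 8 of these 17 genes had 0 reads, so the median was the lowest gene with reads. That was REC114 with 11 reads in library 2 and MSH4 with 12 reads in library 3. Ratios with this class rest on these genes in those libraries. Within a library the log2 ratio of entry regulators over recombination genes was 2.66 ± 0.81 (SD, n = 3) and that over spore formation genes 1.46 ± 0.51 (SD, n = 3). The log2 ratio of recombination over spore formation genes was -0.23, -0.96 and -2.43 in libraries 1, 2 and 3. The medians of the lower pair thus lay close together in library 1 and far apart in library 3, where MSH4 set the recombination median. Leaving out members with fewer than 10 reads over the libraries, which removes SPO11, MEK1 and MER1, gave a recombination median of 3.97 RPKM and a log2 ratio of entry regulators over it of 1.66. It moved the log2 ratio of recombination over spore formation genes from -1.20 to -0.20, so most of the gap between these classes was not seen without those 3 genes. Leaving out SPS100 gave a spore formation median of 2.95 RPKM in the mean over libraries. In library 2 most of the remaining genes had 0 reads, so the median there was 0 RPKM. The order of the lower pair of classes was then reversed in library 2. Without library 1 the recombination median was 1.32 RPKM. No p is given for these ratios, since the members were not drawn at random.

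**Figure D3:**
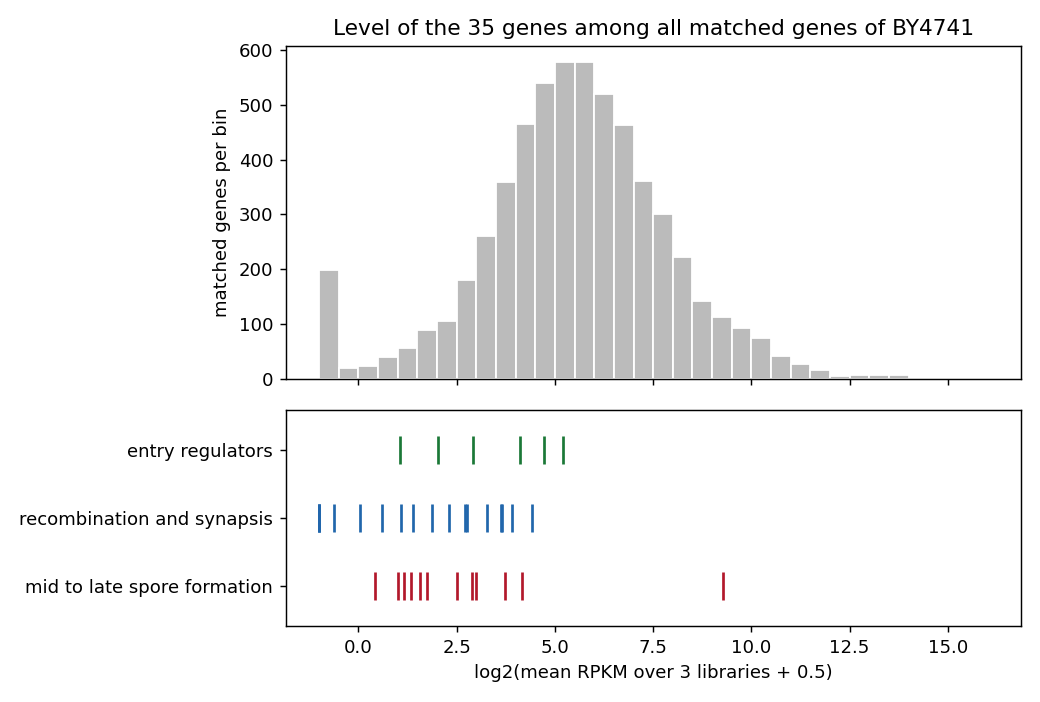
Number of matched BY4741 genes per bin of log2(mean RPKM + 0.5) (grey bars, top) and the 35 genes by class on the same axis (ticks, bottom). The ticks of UME6 and RIM4 lie within the most filled bins, the SPS100 tick lies to the right of them, and the other 32 ticks lie to the left of UME6.

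Among the entry regulators, RIM4 (YHL024W), which encodes an RNA-binding protein that holds back translation of meiotic messages, was highest. It had 1961, 241 and 384 reads in libraries 1, 2 and 3, or 104.8, 46.5 and 83.8 CPM, and 36.6 ± 13.8 RPKM (SD, n = 3). UME6 (YDR207C), the DNA-binding protein that represses early genes in dividing cells, had 1240, 295 and 337 reads, or 66.3, 56.9 and 73.6 CPM, and 26.1 ± 3.32 RPKM (SD, n = 3). RIM4 was low in library 2, while UME6 was close to even and had the smallest spread of any member (coefficient of variation 0.127). The difference between them is within the spread of RIM4.

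IME1 (YJR094C), the master activator gene, was read in each library, with 400, 113 and 51 reads. That is 21.4, 21.8 and 11.1 CPM, and 16.7 ± 5.58 RPKM (SD, n = 3), at a mean percentile of 25.4 among matched genes. Library 3 was the low one. IME2 (YJL106W), which encodes a protein kinase that promotes entry and is turned on by Ime1, had 258, 42 and 87 reads, or 13.8, 8.11 and 18.99 CPM, and 7.03 ± 2.81 RPKM (SD, n = 3). The order of libraries differed between these genes, as IME2 was highest in library 3. NDT80 (YHR124W), the activator gene of the middle programme, had 203, 33 and 13 reads, or 10.9, 6.37 and 2.84 CPM, and 3.55 ± 2.13 RPKM (SD, n = 3). IME4 (YGL192W), which encodes the N6-adenosine methyltransferase of messages, was the lowest regulator, with 89, 20 and 0 reads, or 4.76, 3.86 and 0 CPM.

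IME4 and ZIP2 need a caution on strand. R64 annotates the antisense RNAs RME2 over IME4 and RME3 over ZIP2, both known to be made in haploids and to repress the gene they cross. It also annotates SUT169 on the strand opposite SPS100. The strand setting of the authors' counting is not given in the sources used here, so reads of these genes and of their antisense partners cannot be told apart. The other 32 members overlap no gene in that annotation, and no member shares a stretch of 50 bases with another place in the genome. Overlap with the 674 counted features that did not match the annotation was not checked.

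The lists of genes that act upstream of IME1, and of repressors of meiotic genes, had higher medians than the entry regulators, while single genes of the lists and the class overlapped in level. The list of 18 other upstream genes had a median of 65.1 ± 9.33 RPKM (SD, n = 3), and 17 were at or above 10 CPM, as were 86.6% of all matched genes. RME1, the haploid repressor of IME1, was highest at 404 ± 38.3 RPKM (SD, n = 3), with 7537, 1737 and 1634 reads, followed by XBP1, a stress-induced repressor gene, at 277 ± 31.3. RIM13 and RIM9, genes of the Rim101 processing pathway, were lowest at 12.7 ± 2.14 and 10.7 ± 10.1 RPKM (SD, n = 3 each). The 11 repressor genes had a median of 50.5 ± 8.73 RPKM (SD, n = 3), near the 45.2 RPKM of all matched genes, and 11 of 11 were at or above 10 CPM, a share near that of all matched genes. CTI6 and PHO23, of the Rpd3 histone deacetylase complex, led at 245 ± 26.7 and 137 ± 47.3 RPKM (SD, n = 3 each). UME1 and SSN8, also known as UME3, were lowest at 25.8 ± 2.14 and 13.6 ± 18.4 RPKM, and SSN8 had 632, 23 and 7 reads. RIM9, RIM13, RIM15 (15.5 RPKM) and SSN8 lay below the 16.7 RPKM of IME1 by mean. SUM1, the repressor gene of the middle programme, stood at 60.2 ± 7.47 RPKM (SD, n = 3), against 3.55 for NDT80.

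Markers of mating type were read beside these genes, since cells of both mating types, or a/alpha diploids, would bear on meiotic transcripts. The 7 a-cell markers summed to 499, 589 and 447 CPM in libraries 1, 2 and 3, and 6 were at or above 10 CPM. The 4 alpha-cell markers summed to 49.2, 63.7 and 56.5 CPM. Of these SAG1 stood at 43.0 CPM and the other 3 under 10 CPM, with MF(ALPHA)2 at 16, 15 and 0 reads. Of 9 genes known to be shut in a/alpha diploids, 8 were at or above 10 CPM and FAR1 had 141, 13 and 0 reads. These shares of markers at or above 10 CPM, 6 of 7 and 8 of 9, lie near the 86.6% of all matched genes. Their part in the levels of meiotic genes was not tested.

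**Figure D4:**
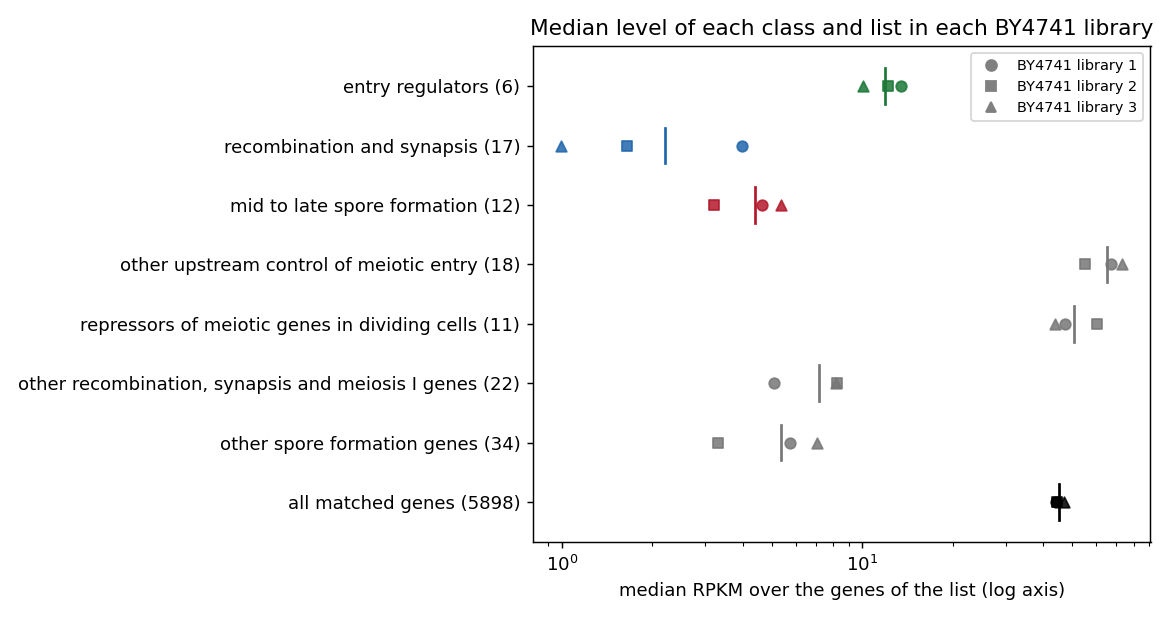
Median RPKM (log axis) over the genes of each of the 3 classes, of 4 lists of other pathway genes and of all matched genes, in BY4741 libraries 1 (circles), 2 (squares) and 3 (triangles), with the number of genes in brackets and a line at the mean. Upstream and repressor lists lie near all matched genes, while the 3 classes and the recombination and spore formation lists lie to the left of them.

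The recombination and synapsis genes ran from 0 reads to 20.9 RPKM. Meiotic recombination starts with breaks made by Spo11 together with partner proteins, and the genes of this machine were far from even. SPO11 (YHL022C), the gene of the enzyme that cuts DNA, had 0 reads in each library, which sets an upper limit of 0.160, 0.579 and 0.655 CPM in libraries 1, 2 and 3 if counting is the only error. REC104 (YHR157W), a partner of Spo11, was the highest of the class with 246, 32 and 69 reads, or 13.1, 6.18 and 15.1 CPM, and 20.9 ± 8.52 RPKM (SD, n = 3). REC102 (YLR329W), with which Rec104 forms a complex, had 91, 0 and 47 reads. The partners REC114 (YMR133W) and MEI4 (YER044C-A) had 34, 11 and 0 and 112, 0 and 0 reads. Of the break genes in this class, REC104 was the one read in every library.

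Genes of the chromosome axis were among those read in each library, with the exception of their kinase. REC8 (YPR007C), the meiotic cohesin subunit, had 449, 104 and 135 reads, or 24.0, 20.1 and 29.5 CPM, and 11.998 ± 2.31 RPKM (SD, n = 3), the smallest relative spread of its class (coefficient of variation 0.192). RED1 (YLR263W), an axis protein gene, had 345, 50 and 274 reads, or 18.4, 9.65 and 59.8 CPM, and 11.8 ± 10.8 RPKM (SD, n = 3). HOP1 (YIL072W), whose product joins Red1 on the axis, had 76, 104 and 42 reads, or 4.06, 20.1 and 9.17 CPM, and 6.11 ± 4.50 RPKM (SD, n = 3). RED1 was highest in library 3 and HOP1 in library 2, but 3 libraries cannot tell if these partners vary together. MEK1 (YOR351C), the kinase that acts on this axis, had 0 reads in each library.

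Of the strand exchange genes, DMC1 was read in every library and HED1 was not. DMC1 (YER179W), the meiotic strand exchange gene, had 179, 34 and 53 reads, or 9.19 ± 2.51 RPKM (SD, n = 3). HED1 (YDR014W-A), a regulator gene of meiotic recombination, had 285, 31 and 0 reads, or 15.2, 5.98 and 0 CPM. HED1 was the second highest of its class by mean, 14.5 RPKM, and stood at 31.2 RPKM in library 1 and at 0 in library 3.

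Synapsis and crossover genes were low throughout. ZIP1 (YDR285W), the central protein of the synaptonemal complex, had 195, 0 and 66 reads, and ZIP2 (YGL249W), which starts synapsis, had 18, 0 and 0. MSH5 (YDL154W) had 201, 38 and 81 reads, or 10.7, 7.33 and 17.7 CPM, and 4.40 ± 1.95 RPKM (SD, n = 3). Its crossover partner MSH4 (YFL003C) had 179, 24 and 12 reads, or 2.13 ± 1.36 RPKM (SD, n = 3), and lay below MSH5 in each library. SPO13 (YHR014W), which keeps sister chromatids together in the first division, had 26, 0 and 0 reads. MER1 (YNL210W), the meiotic splicing activator gene, had 0 reads in each library.

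Other genes of this stage were listed for comparison, and they too were low, with a few exceptions. The 22 genes had a median of 7.17 ± 1.80 RPKM (SD, n = 3), with 10 under 10 CPM and 10 at 0 reads in at least 1 library. Over all matched genes these shares were 13.4% and 9.72%. REC107, also called MER2, a break gene whose message is spliced with the help of Mer1, was highest at 158 ± 23.4 RPKM (SD, n = 3), with 2588, 702 and 802 reads. SPO12, which also acts in exit from mitosis, stood at 154 ± 15.3 RPKM (SD, n = 3). GMC2 and PCH2 were lowest, with 13, 0 and 0 reads and 47, 0 and 0 reads. REC107 therefore stood 7.58 times above REC104, the highest member of the class described here.

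Of the 12 spore formation genes, SPS100 (YHR139C), which acts in spore wall maturation, stood apart. It had 14388, 1922 and 3205 reads, or 769, 371 and 699.6 CPM, and 625 ± 217 RPKM (SD, n = 3), at a mean percentile of 94.0 among matched genes. Library 2 was the low one, as it was for RIM4. YGP1, a related gene of a secreted glycoprotein known to rise in starvation, stood at 498, 994 and 369 RPKM, so the pair had like means but YGP1 was highest where SPS100 was lowest. The next gene of the class, SPR28, stood at 17.3 ± 10.2 RPKM (SD, n = 3), 36.1 times lower than SPS100.

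The sporulation septin genes were read in each library. SPR28 (YDR218C) had 243, 191 and 74 reads, or 13.0, 36.9 and 16.2 CPM, and was high in library 2. SPR3 (YGR059W) had 369, 51 and 134 reads, or 19.7, 9.84 and 29.2 CPM, and 12.7 ± 6.31 RPKM (SD, n = 3), and was low in library 2. The septin genes of dividing cells stood higher, with CDC3 at 89.2 ± 23.6, CDC11 at 89.3 ± 17.7, CDC10 at 52.5 ± 13.9 and CDC12 at 46.6 ± 15.4 RPKM (SD, n = 3 each). Both sporulation septin genes lay below each of these 4 genes in 3 of 3 libraries.

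DIT1 and DIT2, which make the dityrosine of the outer spore wall, lie side by side and are transcribed away from each other, with 898 bases and 0 annotated genes between them. Their printed stretches of 130 bases, which hold no URS1 or MSE core, are shown because the pair shares this interval.
DIT1 (chrIV:1274472-1274601, plus strand): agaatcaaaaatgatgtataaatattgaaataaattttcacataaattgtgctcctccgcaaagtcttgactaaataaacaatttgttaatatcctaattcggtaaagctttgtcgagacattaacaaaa
DIT2 (chrIV:1273704-1273833, minus strand): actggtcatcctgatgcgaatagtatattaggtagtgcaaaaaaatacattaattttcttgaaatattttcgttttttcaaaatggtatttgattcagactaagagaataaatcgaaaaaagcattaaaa
DIT1 (YDR403W) had 143, 80 and 59 reads, or 7.64, 15.4 and 12.9 CPM, and 7.44 ± 2.47 RPKM (SD, n = 3). DIT2 (YDR402C), the cytochrome P450 gene of the pathway, had 107, 0 and 15 reads, or 5.72, 0 and 3.27 CPM. DIT1 was highest in library 2, in which DIT2 had no read. With 3 libraries and counts this low, it cannot be told if the pair varies together.

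The remaining spore formation genes were low, and most lacked reads in at least 1 library. SPO1 (YNL012W), a phospholipase-like gene needed for the meiotic spindle pole, had 173, 89 and 58 reads, or 9.25, 17.2 and 12.7 CPM, and 6.87 ± 2.10 RPKM (SD, n = 3). SPO20 (YMR017W), a SNARE gene of the prospore membrane, had 205, 0 and 35 reads. SPO21 (YOL091W), of the meiotic outer plaque on which that membrane grows, had 43, 0 and 33 reads. SSP1 (YHR184W), of the leading edge of the membrane, had 146, 0 and 0 reads. These membrane genes were among the 14 of 35 members with 0 reads in library 2, so those zeros are not particular to them. Each was read in library 1. Of the kinase genes, SPS1 (YDR523C) had 70, 0 and 0 reads, and SMK1 (YPR054W) had 0, 45 and 0. SPS4 (YOR313C), named as sporulation-specific, had 80, 0 and 20 reads. SMK1 was the member read in library 2 and in no other.

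The list of 34 other spore formation genes was low as well, with a median of 5.37 ± 1.91 RPKM (SD, n = 3). Of these, 17 were under 10 CPM, 13 had 0 reads in at least 1 library and 3 had 0 reads in each. The shares over all matched genes were 13.4%, 9.72% and 3.17%. SPS19, a peroxisomal enzyme gene of fatty acid oxidation named for its induction in sporulation, was highest at 103 ± 49.8 RPKM (SD, n = 3), followed by SPO73 at 78.1 ± 19.9. SPS2, SPO75 and SPO77 were the genes with 0 reads.

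Genes of related function in dividing cells gave a yardstick within the same libraries. SLT2, the MAP kinase gene of cell wall integrity, stood at 131 ± 2.30 RPKM, and SEC9, the SNARE gene related to SPO20, at 112 ± 9.54 RPKM (SD, n = 3 each), above SMK1 and SPO20 in 3 of 3 libraries. MCD1, the cohesin gene of dividing cells, went the other way in part. It stood at 7.81 ± 4.45 RPKM against 11.998 ± 2.31 for REC8, which was higher in libraries 1 and 3 and lower in library 2 (log2 of REC8 over MCD1 0.74 ± 0.99, SD, n = 3), a difference within the spread. RAD53, a checkpoint kinase gene related to MEK1, was low itself at 2.29 ± 0.357 RPKM (SD, n = 3). With 13 pairs and 3 libraries, no test is given.

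Many of the 35 genes had reads in some libraries and none in others. Of their 105 counts, 30 were 0 and 0 lay between 1 and 10, and the smallest count above 0 was 11. Of the members, 3 (8.57%) had 0 reads in each library, against 3.17% of all matched genes, and 18 (51.4%) had 0 reads in at least 1, against 9.72%. Among matched genes with a mean above 0 and under 10 CPM, 59.2% had 0 reads in at least 1 library, as did 15 of 18 such members (83.3%). By library, 4, 14 and 12 of the 35 members had 0 reads in libraries 1, 2 and 3, as did 3.88%, 7.38% and 7.31% of all matched genes, so library 1 held the fewest zeros in both. Library 1 has the most reads. With each library thinned to 4581414 reads, 4, 14 and 12 members and 240, 439 and 431 matched genes had 0 reads. The part of depth in these counts was not tested further.

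Small counts were scarce in BY4741 as a whole. In libraries 1, 2 and 3, 665, 941 and 974 of 6572 features had 0 reads, but 70, 81 and 72 had 1 to 9 reads, 71, 124 and 133 had 10 to 19, and 196, 418 and 382 had 20 to 49. MEI4, with 112 reads in library 1, would have 31.0 and 27.4 reads in libraries 2 and 3 at the same share of the reads, and had 0 in both. SSP1, with 146, would have 40.4 and 35.8, and had 0 in both. Limits from a count of 0 treat reads as independent and say less than they seem to for such genes. The coefficient of variation of the 32 members with reads was 2.12 to 23.1 times that expected from counting error alone, lowest for DMC1 and highest for SPS100. Counting error shrinks as reads rise, so this ratio tends to grow with reads, and SPS100 had the most, 19515 over the libraries. The cause of the scarcity was not tested.

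**Figure D5:**
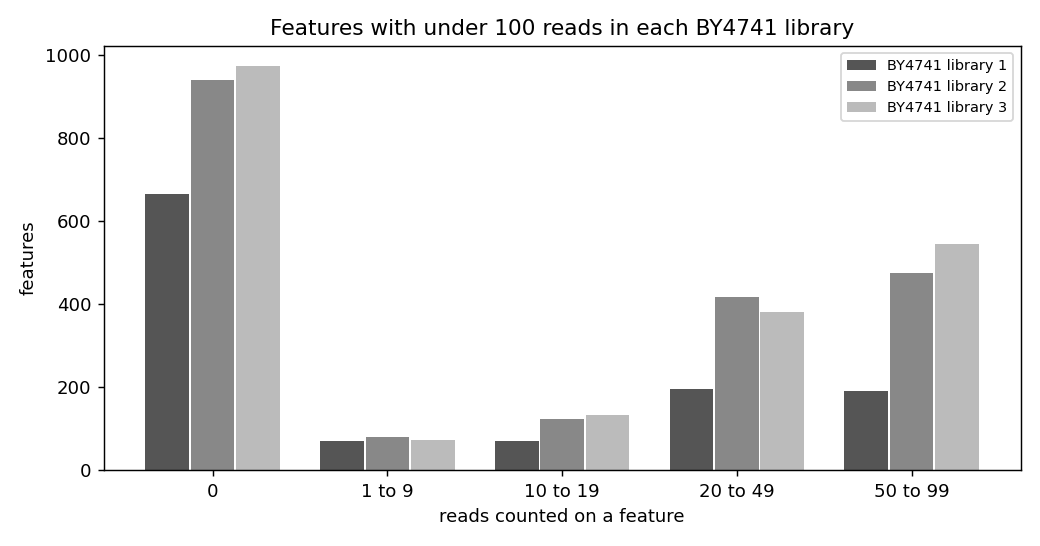
Number of features (y axis) with 0, 1 to 9, 10 to 19, 20 to 49 and 50 to 99 reads (x axis, bins of unequal width) in the 3 BY4741 libraries (bars). Few features hold 1 to 9 reads next to the 665 to 974 with none.

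Differences over 2-fold between libraries were frequent among the members. Among genes with at least 10 reads in the mean of a pair, 20 of 31 members differed over 2-fold between libraries 1 and 2, 13 of 30 between libraries 1 and 3, and 16 of 25 between libraries 2 and 3. The shares over all matched genes were 17.3%, 15.6% and 21.6%. Among matched genes with a mean above 0 and under 10 CPM they were 69.0%, 63.2% and 67.3%. The members' shares, from 43.3% to 64.5%, also take in members at or above 10 CPM, so they cannot be set against those of low genes. The share among low members alone was not computed. Library 1 was the higher of the pair for 16 of the 20 members that differed from library 2. The direction was not counted over all matched genes or other low genes, so it cannot be called a trait of the members. The tagwise BCV, edgeR's estimate of spread beyond counting error, ran from 0.231 for SPS100 to 2.07 for ZIP2. The trend over features of like level was 0.195 and 1.96 for these genes, and the common BCV over 6035 features with reads was 0.499.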

How the data were processed

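RNA was read in 6 libraries, and the 3 of BY4741 were used. Per the labels, RNA came from the RiboPure-Yeast kit and libraries from the NuGEN Universal Plus mRNA-Seq kit. The authors deposited raw read counts per feature with no normalization. FastQC, TopHat, HTSeq and DESeq2 are named in the submitters' processing notes, while build, versions and strandedness of the counting are not stated in the sources used here. The Biocodex counts served for identifiers and totals.

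Counts were divided by library totals (CPM) and by coding length in kb from RefSeq R64 (RPKM), for 5898 features whose names matched; 674 others were left out of the background. Means and SDs are over 3 libraries, which may be technical repeats. No strain or class test was run, since identifiers are not shared and 1 group of 3 libraries has no contrast. Class, member and pathway lists, and the genes of dividing cells, were chosen with earlier results of these data known. By rule, every entry regulator, members at or above 10 CPM and the highest and lowest of each class are given per library. Dispersion came from edgeR 4.0.16 (TMM, features with reads) in R 4.3.3; other steps used Python 3.11.15, pandas 2.3.3 and SciPy 1.17.1. The dispersion step was tested on simulated counts of known spread. Intervals from 0 counts use 3 reads and cover counting error only.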

Additional observations from a re-analysis of the deposited data

How the results depend on the processing

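The 15 results were recomputed under 86 alternatives. Of these, 75 moved a value by less than its spread, a count by no more than 1.5 times, or a promoter share within its 95% Wilson interval. That interval, a range for a share, is wide when few promoters are counted. A fall of the entry regulators' URS1 share from 33.3% to 16.7% with the longer motif was thus among the 75. The other 11 moved further, and 0 changed a direction. Some of the 75 could not move. TMM scales a whole library, so it leaves within-library class ratios and counts of 0 reads as they were. SPO13 and the members under 10 reads are recombination genes. Leaving them out cannot move the medians of entry regulators or spore formation genes, nor the ratio between those classes. On the CPM scale the medians were 15.9 for entry regulators and 6.50 for spore formation genes, since coding length no longer divides them. With a mean of logs in place of the median, the entry regulators stood at 9.06 RPKM. Without members under 10 reads the recombination median was 3.97 RPKM and the log2 ratio of entry regulators over it 1.66, and the log2 ratio of recombination over spore formation genes went from -1.20 to -0.20. Of the 35 members 21 were under 10 CPM, 14 under 5 CPM and 29 under 20 CPM. Of all matched genes 13.4% were under 10 CPM, and the shares under 5 and 20 CPM were not computed. Without SPS100, an alternative chosen after seeing the data, the spore formation median was 2.95 RPKM. The class ratios were not among the results recomputed without SPS100. The number of members with 0 reads in each library was 3, or 18 when 0 reads in at least 1 library was asked, also chosen after seeing the data. Leaving out 1 library gave 3 to 8, the 8 being without library 1. The number of members over 2-fold apart in any pair of libraries was 26 of 31 tested. It was 13 to 20 with 1 library left out, where 1 pair takes the place of 3. Over all matched genes the share was 15.6% to 21.6% for single pairs, and the share for any pair was not computed. The share of spore formation promoters with a URS1 core was 8.33%, and 0% for the longer motif.

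No paired analysis was possible because replicate numbers are shared between the strains alone, which have no identifiers in common, and no result compares them. The class ratios were taken within each library. At this depth members near 10 reads cannot be ranked, and low members rest on counts that jump between 0 and over 10 reads.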
